A study of Mus musculus with 12 samples.

Results

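Expression of 9 genes of hepatic glucose handling was examined in the livers of mice with carbon tetrachloride (CCl4) injury and of mice that were also given silibinin or phloridzin. The 9 genes were chosen with earlier results of these data known, and were taken by symbol with no filter on their values. They are G6pc, Slc37a4, Pck1 and Fbp1 of glucose production, the pyruvate kinases Pklr and Pkm, the glycogen synthase Gys2, and the glucose carriers Slc2a2 and Slc2a1. All 9 were found among the 24296 gene symbols of the data, where 39 transcripts carry their names, and all 9 were among the 13158 genes with enough signal to be tested.

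Bulk RNA of 12 livers from male C57/BL6N mice was sequenced, with 3 livers in each of 4 groups. The control mice are labelled as wild type, with no word in the sources used here on whether they were given olive oil, and the model mice received intraperitoneal CCl4 in olive oil, 5 mL/kg per injection, over 8 weeks with 2 injections in each. The silibinin and phloridzin mice received the same injections, and their drug was started in week 5. The phloridzin livers came from the high-dose group of the study, and the doses of the drugs differ. Age and the time since the last meal are not given in the sources used here. Silibinin is a flavonolignan of milk thistle and phloridzin is a glucoside of the dihydrochalcone phloretin, known to inhibit the sodium-glucose cotransporters SGLT1 and SGLT2. The comparison of model with control livers asks how the injury moves these genes, and the comparisons of treated with model livers ask how each drug moves them in injured liver.

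The liver keeps blood glucose steady by releasing glucose when food is absent and by storing or breaking it down after a meal. In gluconeogenesis, Pck1 turns oxaloacetate into phosphoenolpyruvate, Fbp1 removes a phosphate from fructose 1,6-bisphosphate, and the glucose 6-phosphatase G6pc frees glucose inside the endoplasmic reticulum from substrate carried there by Slc37a4. Glycolysis runs the other way and ends with pyruvate kinase, which hepatocytes take mainly from Pklr and most other cells of the liver from Pkm, while Gys2 builds glycogen, Slc2a2 (GLUT2) is the main glucose carrier of hepatocytes and Slc2a1 (GLUT1) is a carrier of many other cells.

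Levels are given in FPKM, fragments per kilobase of transcript and per 1e+06 fragments of the library, summed over the transcripts of a gene, so that they can be compared between genes per length. Library sizes, read from the smallest steps of the values, were 83.7 to 110.9 in units of 1e+06 fragments. A log2 fold change is the difference of the group means of log2(FPKM + 1), it is given with its standard error (SE), and it understates the change of genes at low levels. Genes are said to rise, fall or change at a Benjamini-Hochberg adjusted p under 0.05 in limma over all genes tested, and are called DE where the log2 fold change is also above 1 or below -1. The median log2 fold change of all genes was 0.34 between model and control livers, and median-ratio scaling of the libraries moved it by -0.32. It was -0.15 for silibinin and -0.11 for phloridzin against the model, and this scaling moved those medians by 0.16 and 0.13. Against control it was 0.16 with silibinin and 0.18 with phloridzin, moved by -0.17 and -0.20. The split of DE genes moved with it, from 1240 higher and 142 lower as deposited to 529 and 453 scaled for model against control. It went from 98 and 428 to 189 and 241 for silibinin against model, and from 79 and 384 to 140 and 240 for phloridzin against model. Against control it went from 229 and 32 to 150 and 53 with silibinin and from 360 and 38 to 187 and 62 with phloridzin, and between the drugs it remained at 1 and 2. For the 9 genes, where one changed, the fold change above or below the median of all genes is therefore given as well.

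Between model and control livers Pkm and Slc2a1 rose, and none of the 4 genes of glucose production passed the test. With median-ratio scaling Slc2a1 was not called, at 0.36 (adjusted p = 0.124), and G6pc passed, at -1.34 (adjusted p = 0.0304). These 2 of 9 genes compare with 31.1% of all genes tested that rose, 0 of 9 fell where 3.80% of all genes did, and 1 of 9 was DE, Pkm, where 10.5% of all genes were. With silibinin, Slc2a1 and Pkm fell against the model. That is 2 of 9 genes against 11.4% of all genes, with 0 of 9 higher against 2.62% and 0 of 9 DE against 4.0%. With median-ratio scaling Pkm was not called, at -0.60 (adjusted p = 0.0746), and Fbp1 passed, at 1.64 (adjusted p = 0.0384). The shares of all genes were then 5.56% higher and 6.48% lower. With phloridzin, Fbp1 rose and Slc2a1 fell against the model. That is 1 of 9 genes higher against 2.50% of all genes, 1 of 9 lower against 10.4%, and 1 of 9 DE, Fbp1, against 3.52%. With median-ratio scaling G6pc passed as well, at 1.39 (adjusted p = 0.0471), where 4.72% of all genes were higher and 6.27% lower. Against control livers, 0 of 9 genes changed with silibinin in limma (2 of 9 at an unadjusted p under 0.05), where 4.59% of all genes were higher, 0.433% lower and 1.98% DE. With phloridzin Pkm alone of the 9 was higher than in control livers and DE (0 of 9 DE with median-ratio scaling), against 7.51% of all genes higher, 0.479% lower and 3.02% DE. The comparisons with the model share the model livers, and those with the control share the control livers, so they are not independent of each other.

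**Figure D1:**
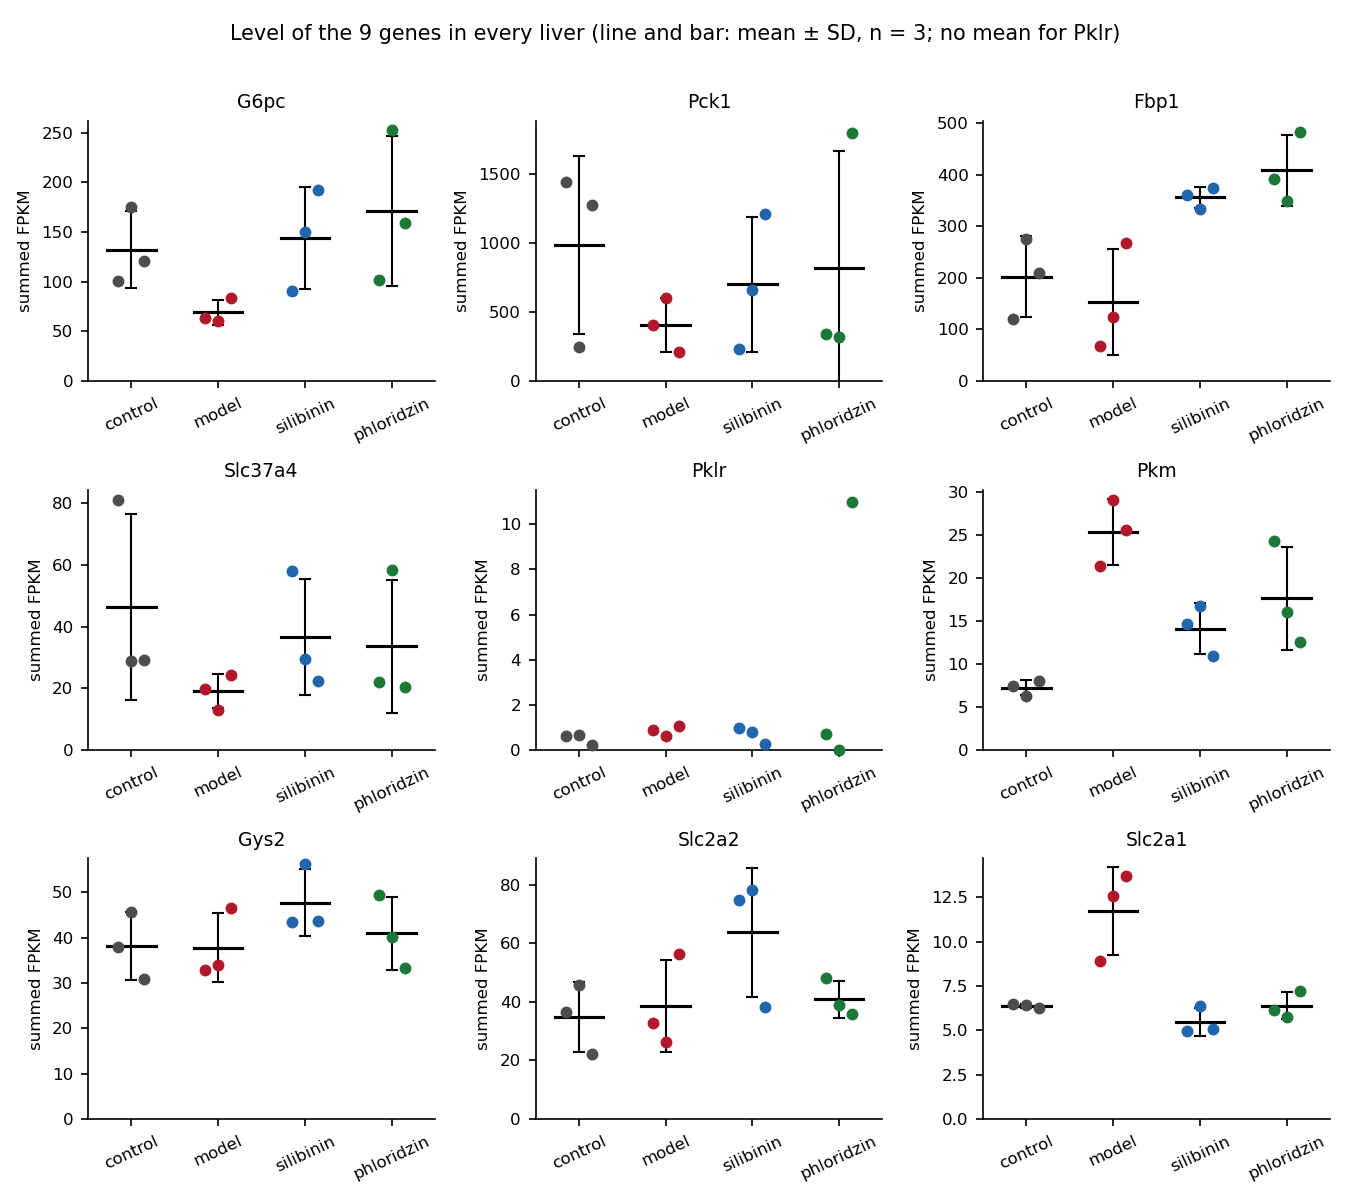
Summed FPKM of each of the 9 genes in every liver, by group (points: livers, horizontal lines: means, bars: SD, n = 3; axes start at 0, where bars that would pass it end; no mean is drawn for Pklr). The 3 model livers lie below all others for G6pc, at 60.1 to 83.8 FPKM, and above all others for Slc2a1, at 8.91 to 13.7 FPKM.

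G6pc, the catalytic subunit of glucose 6-phosphatase (chr11:101367561-101377903, plus strand), was measured through 1 transcript. Its level was 100.4, 175 and 121 FPKM in the 3 control livers and 63.7, 60.1 and 83.8 FPKM in the model livers. It was 90.5, 149.7 and 193 FPKM with silibinin and 102, 253 and 159 FPKM with phloridzin. All 3 model livers were below each of the other 9 livers, while the control, silibinin and phloridzin livers overlapped. The log2 fold change was -0.90 (SE 0.36, adjusted p = 0.0747) for model against control, 1.00 (SE 0.36, adjusted p = 0.0925) for silibinin against model and 1.21 (SE 0.36, adjusted p = 0.0507) for phloridzin against model. None of these comparisons passed the threshold, and whether they pass depends on the settings. With median-ratio scaling the model against control value was -1.34 (adjusted p = 0.0304, range 0.0304 to 0.219 over 14 alternatives) and the phloridzin against model value was 1.39 (adjusted p = 0.0471, range 0.0178 to 0.171), so that both passed. Model against control also passed with only the 2 compared groups in the fit (adjusted p = 0.0311), and phloridzin against model with a filter at a mean of 1 FPKM (adjusted p = 0.0485). Without phloridzin replicate 1 the phloridzin against model value was 1.53 (adjusted p = 0.0178). In bulk RNA, fewer cells of a type and less RNA per cell cannot be told apart.

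The promoters of 4 of the genes are printed here, G6pc and Pck1 as genes of glucose production and Slc2a1 and Pkm as genes that rose in model livers. Promoter windows from RefSeq (build GRCm38.p6) were matched for 8 of the 9 genes, 12 windows in all, and none for Gys2. Each window covers the bases before the RefSeq start of the gene and the first bases of its first exon. All 4 lie on the plus strand, at chr11:101367466-101367765 for G6pc, chr2:173152823-173153122 for Pck1, chr4:119108495-119108794 for Slc2a1 and chr9:59656326-59656625 for Pkm. Capitals mark matches on either strand to 9 motifs.
G6pc: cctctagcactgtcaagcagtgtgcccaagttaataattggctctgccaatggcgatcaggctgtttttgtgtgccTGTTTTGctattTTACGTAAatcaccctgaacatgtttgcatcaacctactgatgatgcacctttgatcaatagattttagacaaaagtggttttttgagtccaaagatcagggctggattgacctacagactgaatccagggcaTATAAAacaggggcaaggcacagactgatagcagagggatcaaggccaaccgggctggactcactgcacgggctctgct
Pck1: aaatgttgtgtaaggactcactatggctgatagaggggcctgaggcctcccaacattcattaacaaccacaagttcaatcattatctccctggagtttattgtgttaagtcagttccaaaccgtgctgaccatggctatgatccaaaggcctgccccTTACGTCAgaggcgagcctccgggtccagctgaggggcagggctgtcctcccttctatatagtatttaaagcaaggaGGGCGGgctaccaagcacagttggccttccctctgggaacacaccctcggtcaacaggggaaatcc
Slc2a1: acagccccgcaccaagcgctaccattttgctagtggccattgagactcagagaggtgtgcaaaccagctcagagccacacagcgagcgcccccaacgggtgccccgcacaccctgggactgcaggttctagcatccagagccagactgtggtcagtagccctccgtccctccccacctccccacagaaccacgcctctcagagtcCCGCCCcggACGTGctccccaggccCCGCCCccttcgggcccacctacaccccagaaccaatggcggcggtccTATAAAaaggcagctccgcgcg
Pkm: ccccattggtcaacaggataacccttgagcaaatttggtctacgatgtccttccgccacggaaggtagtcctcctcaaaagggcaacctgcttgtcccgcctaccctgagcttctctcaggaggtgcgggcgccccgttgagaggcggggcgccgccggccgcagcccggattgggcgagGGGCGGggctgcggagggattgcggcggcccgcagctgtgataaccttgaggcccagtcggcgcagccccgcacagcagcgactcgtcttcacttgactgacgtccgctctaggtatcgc

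The motifs searched were the TATA box TATAAA, held by 13.6% of 32851 promoter windows of this length, the GC box GGGCGG (35.7%), the E-box CACGTG (7.15%) and the core of the hypoxia response element ACGTG (19.6%), which lies within the E-box. Also searched were the cyclic AMP response element TGACGTCA (1.79%), its variant TTACGTCA (0.499%), the related palindrome TTACGTAA (0.119%), the insulin response sequence CAAAACA (6.28%) and the AP-1 motif TGANTCA (7.81%). The G6pc window holds TATAAA 29 bases upstream of the RefSeq start, TTACGTAA 162 bases upstream and CAAAACA, read on the other strand, 174 bases upstream. The Pck1 window holds TTACGTCA 93 bases upstream and a GC box 16 bases upstream. In the Slc2a1 window ACGTG lies 36 bases upstream between GC boxes on the other strand, 45 and 20 bases upstream, and TATAAA begins 28 bases downstream of the RefSeq start. The Pkm window printed holds a GC box 70 bases upstream, and a further Pkm window (chr9:59656977-59657276) holds ACGTG on the other strand 75 bases upstream and 8 bases downstream of its start. These matches describe the letters of the windows and show neither binding nor a cause of any change.

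Slc37a4, the carrier that brings glucose 6-phosphate to G6pc (chr9:44396852-44402968, plus strand), was at 81.0, 28.8 and 29.1 FPKM in control livers and 19.9, 13.1 and 24.3 FPKM in model livers. With silibinin it was 57.9, 29.6 and 22.5 FPKM, and with phloridzin 22.1, 58.5 and 20.3 FPKM. The model livers were below the control livers without overlap, and each drug group held 1 liver far above its other livers and overlapped the model. The log2 fold change of -1.10 for model against control (SE 0.51, adjusted p = 0.120) did not pass, nor did the drug comparisons. With the most abundant transcript alone the model against control value was -2.47 and the silibinin against model value 3.19 (0.83 with the sum), and leaving out 1 library gave -1.35 to -0.61 for model against control and 0.45 to 1.12 for silibinin against model. No alternative of either passed (adjusted p 0.0519 to 0.374 and 0.200 to 0.656). The sum was carried by different transcripts in different livers. Slc37a4-201 was at 78.1 FPKM in control replicate 1 and at 2.28 FPKM in control replicate 2, where Slc37a4-202 was at 21.8 FPKM. In phloridzin replicate 1 the main entry was Slc37a4-207, at 18.6 FPKM, which was listed at 0 in the other 11 livers. Such changes of transcript between livers of 1 group were not tested, and the sum is used for this gene.

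Pck1, the cytosolic phosphoenolpyruvate carboxykinase (chr2:173153048-173159273, plus strand), had the highest mean over the 12 livers of the 9 genes, although Fbp1 was above it in 5 of them. It was at 1436, 248 and 1272 FPKM in control livers and 409, 600.0 and 207 FPKM in model livers. With silibinin it was 232, 662 and 1205 FPKM, and with phloridzin 341, 317 and 1793 FPKM. Livers of the same group differed by 5.78 times in the control group, 2.90 times in the model group, 5.19 times with silibinin and 5.65 times with phloridzin, and all groups overlapped. The log2 fold change of model against control was -1.05 (SE 0.88, adjusted p = 0.378) with a 95% interval of -3.00 to 0.90 and a range of -1.86 to -0.60 when 1 library was left out, so that neither no change nor a fall of several-fold could be told from the spread. The transcript Pck1-202, annotated with a retained intron, had a mean of 431 FPKM in control livers beside 477 FPKM for the coding transcript Pck1-201, and the sum counts both.

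Fbp1, the fructose 1,6-bisphosphatase of liver (chr13:62864753-62888282, minus strand), was at 121, 276 and 209.7 FPKM in control livers and 67.7, 124 and 267 FPKM in model livers. With silibinin it was 360.3, 334 and 373 FPKM, and with phloridzin 392, 349 and 483 FPKM. Every liver of the drug groups was above every control and model liver, and the model and control livers overlapped. Against the model the log2 fold change was 1.62 with phloridzin (SE 0.43, adjusted p = 0.0347, 1.73 above the median of all genes), a DE call, and 1.43 with silibinin (SE 0.43, adjusted p = 0.0518). The difference between the drugs was 0.19 (95% interval -0.77 to 1.14), so the call with phloridzin and its absence with silibinin do not set the drugs apart. Against control the values were 1.08 with phloridzin (SE 0.43, adjusted p = 0.156) and 0.89 with silibinin (SE 0.43, adjusted p = 0.265). The phloridzin call against the model passed in 6 of 14 alternatives (adjusted p 0.00664 to 0.111) and was lost without model replicate 1 (0.0987) or 2 (0.0952) and without phloridzin replicate 1 (0.0564), 2 (0.0750) or 3 (0.102). The silibinin value passed without model replicate 3, at 1.94 (adjusted p = 0.00973, range 0.00973 to 0.146), and with median-ratio scaling, at 1.64 (adjusted p = 0.0384).

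**Figure D2:**
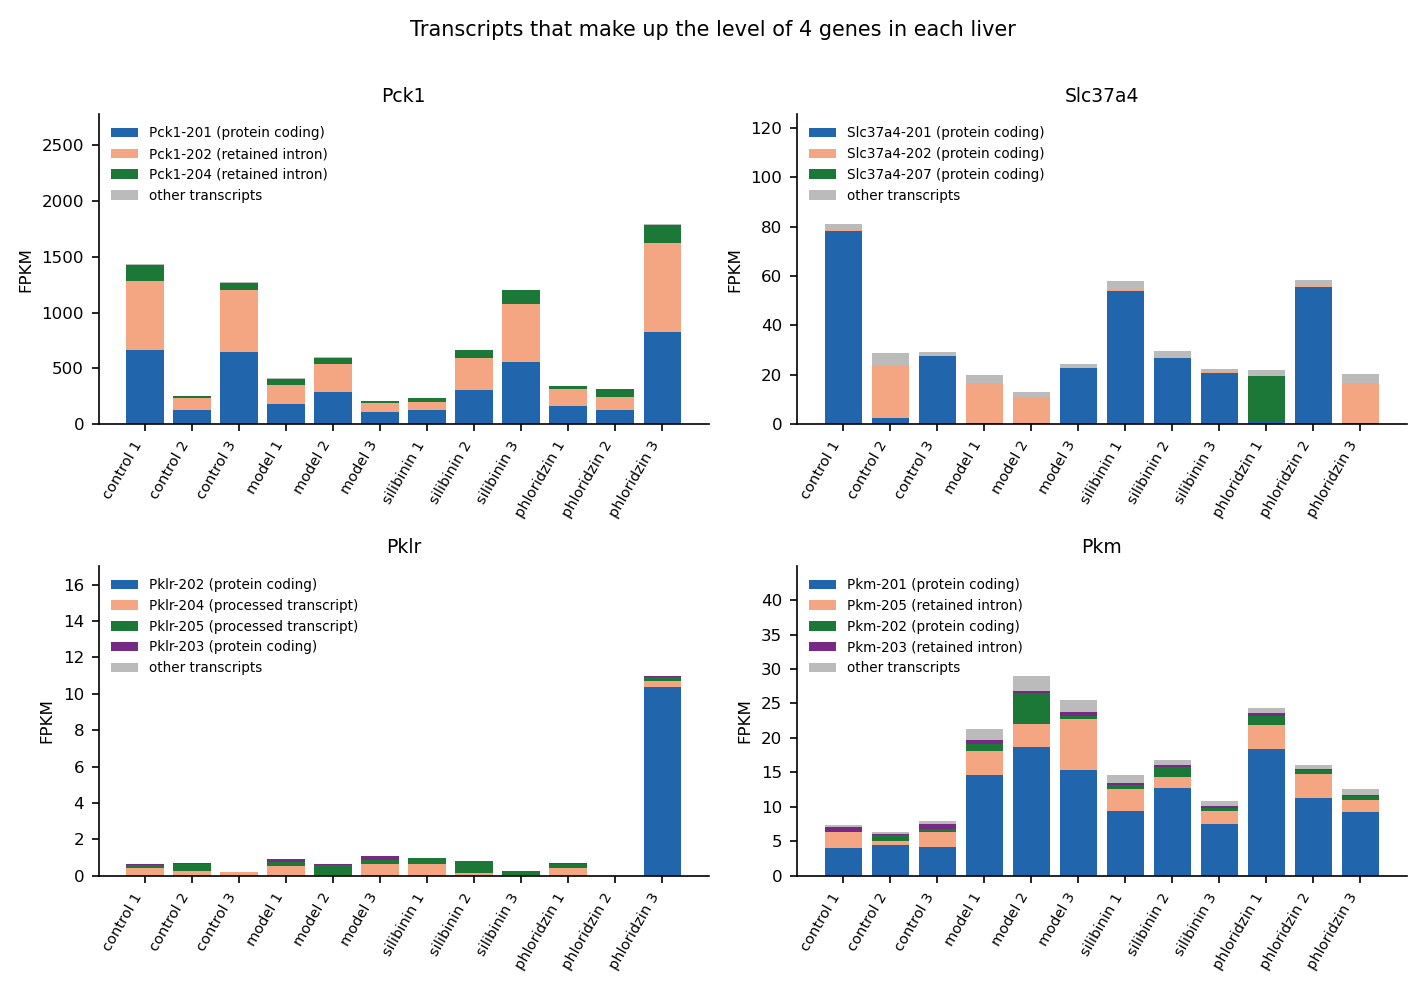
FPKM of the transcripts of Pck1, Slc37a4, Pklr and Pkm in each liver, stacked to the gene's sum (colours: transcripts with at least 5% of the sum in a group, with their annotated type; grey: the others). Slc37a4 is carried by Slc37a4-201 in control replicate 1, at 78.1 FPKM, and by Slc37a4-202 in control replicate 2, at 21.8 FPKM, and the Pklr sum reaches 11.0 FPKM in phloridzin replicate 3 alone.

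Pklr, the pyruvate kinase of hepatocytes and red cells (chr3:89136142-89146784, plus strand), was listed far below the other genes. Its sum was 0.618, 0.674 and 0.215 FPKM in control livers and 0.910, 0.629 and 1.08 FPKM in model livers. With silibinin it was 0.991, 0.813 and 0.264 FPKM, and with phloridzin it was listed at 0.690, 0 and 11.0 FPKM. One liver, phloridzin replicate 3, stood apart from all others. The coding transcript Pklr-202 was at 10.4 FPKM there and at 0 or 0.00328 FPKM in the other livers, and the coding transcript Pklr-201 was listed at 0 in all 12. Gapdh, a glycolytic enzyme that every cell uses, was likewise listed at only 0.152 to 12.6 FPKM, so these low entries are given as listed and not as a measure of absence. No Pklr comparison passed the threshold, and none is read as a level of the gene.

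Pkm, the pyruvate kinase of most other cells (chr9:59656368-59679375, plus strand), was at 7.39, 6.30 and 7.99 FPKM in control livers and 21.4, 29.0 and 25.5 FPKM in model livers. With silibinin it was 14.6, 16.7 and 10.9 FPKM, and with phloridzin 24.3, 16.0 and 12.6 FPKM. All livers of the injured groups were above all control livers, the silibinin livers were below all model livers, and phloridzin replicate 1 lay among the model livers. Pkm rose in model livers by a log2 fold change of 1.67 (SE 0.23, adjusted p = 0.000565), which is 1.33 above the median of all genes and 3.50 times the control mean in FPKM. This DE call held in 14 of 14 alternatives. Pkm remained higher than control with phloridzin, by 1.14 (SE 0.23, adjusted p = 0.0180, 0.95 above the median of all genes), and was 0.86 with silibinin (SE 0.23, adjusted p = 0.0591). The phloridzin call was lost without control replicate 1 (adjusted p = 0.0568) or 2 (0.0655) and with only the 2 compared groups in the fit (0.0720), with a range of 0.0107 to 0.0720 over 14 alternatives. It fell under the fold change for DE, at 0.89, with median-ratio scaling and without phloridzin replicate 1. The silibinin value against control passed with a pseudocount of 0.1 (adjusted p = 0.0409), with only the 2 compared groups in the fit (0.0480) and without silibinin replicate 3, at 1.02 (adjusted p = 0.0408; range 0.0408 to 0.212).

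Against the model, Pkm fell with silibinin by 0.81 on the log2 scale (SE 0.23, adjusted p = 0.0404, -0.66 against the median of all genes), and the phloridzin value was -0.54 (SE 0.23, adjusted p = 0.159). The silibinin call passed in only 4 of 14 alternatives (adjusted p 0.0383 to 0.140). It was lost with median-ratio scaling, at -0.60 (adjusted p = 0.0746), and without any 1 of model replicates 1 (0.0517), 2 (0.129) and 3 (0.0910) or silibinin replicates 1 (0.0872) and 3 (0.140). Without phloridzin replicate 1 the phloridzin value was -0.78 (adjusted p = 0.0290; range 0.0290 to 0.448). The difference between the drugs was 0.28 (95% interval -0.23 to 0.78), and 0.0312 to 0.48 when 1 library was left out. Pkm makes different enzymes by using either of a pair of alternative exons. Pkm-201, which holds the downstream exon of the pair (chr9:59675568-59675734) and codes for the M2 type, was at 4.27 ± 0.208 FPKM in control livers (SD, n = 3) and 16.2 ± 2.21 FPKM in model livers. It was 9.89 ± 2.66 FPKM with silibinin and 13.0 ± 4.77 FPKM with phloridzin, and it made up 59.1%, 64.0%, 70.2% and 73.6% of the gene's sum in the control, model, silibinin and phloridzin groups. Pkm-202, with the upstream exon (chr9:59675029-59675195), was at 0 to 4.44 FPKM, highest in model replicate 2.

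Gys2, the glycogen synthase of liver (chr6:142422613-142473109, minus strand), was at 30.9 to 45.7 FPKM in control livers, 32.9 to 46.5 FPKM in model livers, 43.4 to 56.1 FPKM with silibinin and 33.3 to 49.3 FPKM with phloridzin. All groups overlapped and no comparison passed. The model against control value was -0.01, with a range of -0.45 to 0.12 over 14 alternatives (lowest adjusted p = 0.0780 in limma). The silibinin against model value was 0.34, with a range of 0.22 to 0.54 (lowest adjusted p = 0.0635). Slc2a2, the GLUT2 carrier (chr3:28697903-28731359, plus strand), was at 22.2 to 45.9 FPKM in control livers and 26.5 to 56.3 FPKM in model livers. It was 74.7, 78.1 and 38.3 FPKM with silibinin and 35.8 to 48.0 FPKM with phloridzin. The first 2 silibinin livers were the highest of the 12, and the silibinin against model value of 0.71 (SE 0.35, adjusted p = 0.213) did not pass.

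Slc2a1, the GLUT1 carrier (chr4:119108711-119137983, plus strand), was at 6.48, 6.42 and 6.23 FPKM in control livers and 8.91, 12.5 and 13.7 FPKM in model livers. With silibinin it was 4.98, 6.35 and 5.05 FPKM, and with phloridzin 6.16, 5.75 and 7.22 FPKM. All 3 model livers were above all other livers, and the drug groups overlapped each other and the control livers. Slc2a1 rose in model livers by 0.77 (SE 0.16, adjusted p = 0.00482, 0.43 above the median of all genes). Against the model it fell with silibinin by 0.96 (SE 0.16, adjusted p = 0.00368, -0.81 against the median of all genes) and with phloridzin by 0.77 (SE 0.16, adjusted p = 0.0116, -0.66 against that median). Against control the values were -0.20 with silibinin (95% interval -0.55 to 0.16) and -0.00 with phloridzin (-0.36 to 0.35). The rise in model livers was not called with median-ratio scaling, at 0.36 (adjusted p = 0.124, range 0.00194 to 0.124 over 14 alternatives). The fall with silibinin held in 14 of 14 alternatives, and that with phloridzin in 12 of 14 (adjusted p 0.00444 to 0.0755), lost with only the 2 compared groups in the fit (adjusted p = 0.0755) and without phloridzin replicate 2, at -0.71 (adjusted p = 0.0508).

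The sodium-glucose cotransporters Slc5a1 (SGLT1) and Slc5a2 (SGLT2), the known targets of phloridzin, were near the floor of the data. Slc5a1 was at 0.129 to 0.545 FPKM and Slc5a2 at 0.0810 to 0.244 FPKM over the 12 livers, both under the filter on low values. No test was made of them. Of the 22 sugar and lactate transporters listed, 20 were in the data and 11 were tested.

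**Figure D3:**
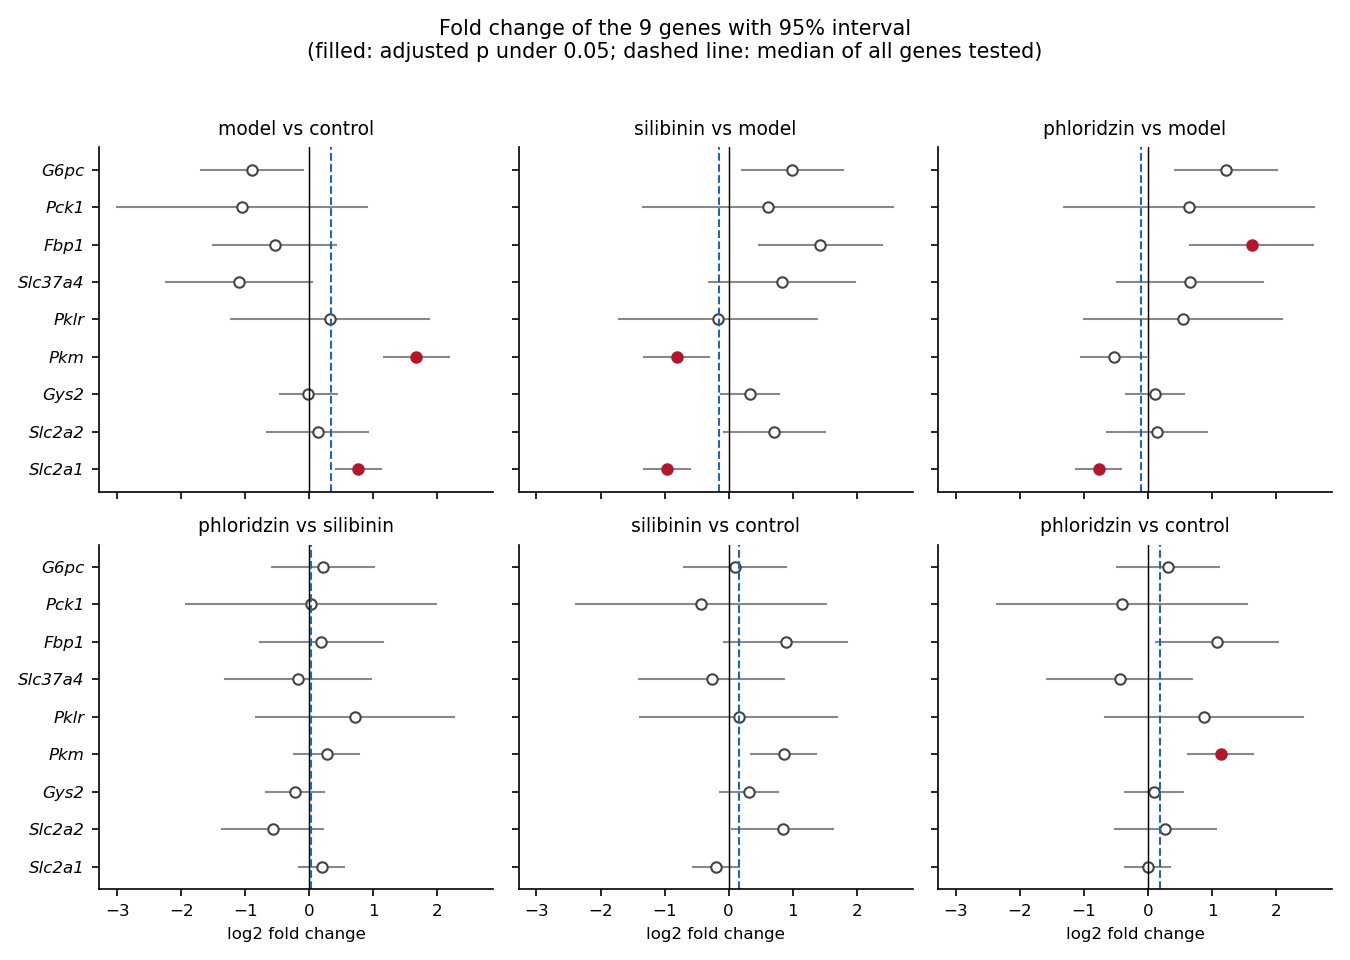
Log2 fold change of each of the 9 genes with its 95% interval in the 6 comparisons (filled points: adjusted p under 0.05; solid line: 0; dashed line: median of all 13158 genes). Pkm and Slc2a1 are filled to the right of the median in model against control livers, and no gene is filled between phloridzin and silibinin.

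Phloridzin and silibinin livers were then compared directly. In limma 0 of the 9 genes changed, 0 of 9 at an unadjusted p under 0.05, and 0.0228% of all genes, which is 3 of 13158, did (494 at an unadjusted p under 0.05). The difference was bounded most closely for Slc2a1, at 0.19 (95% interval -0.16 to 0.55), and for Gys2, at -0.22 (-0.68 to 0.23). For G6pc it was 0.22 (-0.58 to 1.01) and for Slc2a2 -0.57 (-1.36 to 0.21). For Pck1, at 0.02, the interval of -1.93 to 1.97 was the widest of the 9 genes. A p above the threshold does not show that the drugs act alike, and their doses differ.

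The other genes of the pathway were followed in 6 lists with 136 genes, of which 134 were in the data and 118 were tested. Between model and control livers 32 of the 118 rose and 14 fell, where 31.1% of all genes rose and 3.80% fell, with a median log2 fold change of 0.32 beside 0.34 for all genes. The counts of each list below are to be read beside these shares. With median-ratio scaling 18 rose and 27 fell, where 13.3% of all genes rose and 11.8% fell, so the balance of directions moved with that of all genes. With silibinin 10 rose and 16 fell against the model (15 and 10 when scaled), beside 2.62% and 11.4% of all genes (5.56% and 6.48% when scaled). With phloridzin 9 rose and 13 fell (13 and 8 when scaled), beside 2.50% and 10.4% of all genes (4.72% and 6.27% when scaled). Between the drugs 0 of 118 changed in limma. Against control 4 were higher and 0 lower with silibinin, and 8 were higher and 0 lower with phloridzin, beside 4.59% and 7.51% of all genes that were higher.

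In model against control livers, and in each drug against the model, the largest changes of these lists were in regulators of hepatic glucose genes. Of 31 tested, 9 rose and 3 fell in model livers (4 and 8 when scaled), 3 rose and 7 fell with silibinin against the model (4 and 6 when scaled), and 2 rose and 6 fell with phloridzin (4 and 4 when scaled). The call of Mlx in model livers turned with scaling, from a rise of 0.40 (adjusted p = 0.0452) to a fall. Against control 0 of 31 changed with either drug in limma, and when scaled 1 was lower with silibinin and 2 with phloridzin. Trib3, a pseudokinase induced by cell stress, was at 5.41, 6.31 and 4.09 FPKM in control livers and 64.4, 42.1 and 74.5 FPKM in model livers. It was 5.00, 4.25 and 3.43 FPKM with silibinin and 4.70, 4.89 and 5.36 FPKM with phloridzin. The model livers stood far above a narrow band that held all the others. The log2 fold change was 3.27 in model livers (SE 0.21, adjusted p = 8.93e-06), -3.53 with silibinin (SE 0.21, adjusted p = 7.92e-06) and -3.32 with phloridzin (SE 0.21, adjusted p = 1.38e-05).

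Igfbp1, a secreted protein whose gene is lowered by insulin, was at 31.6, 21.9 and 29.0 FPKM in control livers and 321, 467 and 425 FPKM in model livers. It was 35.7, 27.1 and 107 FPKM with silibinin and 40.4, 128 and 127 FPKM with phloridzin. The model livers did not overlap any group, and 2 silibinin and all 3 phloridzin livers were between the control and model ranges. Igfbp1 rose by 3.83 in model livers (SE 0.52, adjusted p = 0.000542) and fell by 3.06 with silibinin (SE 0.52, adjusted p = 0.00432) and by 2.19 with phloridzin (SE 0.52, adjusted p = 0.0217). The phloridzin call was lost with median-ratio scaling, at -2.00 (adjusted p = 0.0517). Fgf21, a hormone of liver that acts on glucose and fat use, rose by 3.28 in model livers (SE 0.55, adjusted p = 0.00163) and fell by 3.15 with silibinin and 3.03 with phloridzin. Sik1, a kinase that holds back transcription of gluconeogenic genes, rose by 1.72 in model livers and fell by 1.24 with silibinin, the latter lost when scaled (adjusted p = 0.0876). Mlxipl, the glucose-sensing factor ChREBP, rose by 1.42 in model livers (adjusted p = 0.0327; 0.103 when scaled). Cebpb, a transcription factor, fell by 1.13 with silibinin and 1.12 with phloridzin, and Srebf1, a factor of lipid synthesis, fell by 1.18 with phloridzin (adjusted p = 0.0368; 0.0649 when scaled).

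Of 15 further genes of gluconeogenesis tested, 2 rose and 2 fell in model livers (1 and 5 when scaled), with a median of -0.07 beside 0.34 for all genes. With silibinin 1 rose and 0 fell (2 and 0 when scaled), and with phloridzin 2 rose and 0 fell (3 and 0 when scaled). Got1, the cytosolic aspartate aminotransferase, was at 207, 153 and 102 FPKM in control livers and 38.2, 43.6 and 69.5 FPKM in model livers. It was 81.4, 94.6 and 172 FPKM with silibinin and 82.3, 217 and 332 FPKM with phloridzin. The model livers were below all others, as they were for G6pc. Got1 fell by 1.58 in model livers (SE 0.49, adjusted p = 0.0294) and rose by 1.87 with phloridzin (SE 0.49, adjusted p = 0.0316). Gpt, the alanine aminotransferase, rose with silibinin by a log2 fold change of 1.32 (95% interval 0.81 to 1.82, adjusted p = 0.00461) and with phloridzin with an interval of 0.80 to 1.80 (adjusted p = 0.00493). Pck2, the mitochondrial counterpart of Pck1, was at 0.708 to 1.22 FPKM in control livers and 3.76 to 4.76 FPKM in model livers, a rise of 1.49 (SE 0.28, adjusted p = 0.00274), and was also above control with phloridzin by 1.17 (SE 0.28, adjusted p = 0.0311). Pcx, the pyruvate carboxylase that supplies Pck1 with substrate, ranged from 30.2 to 169 FPKM within the control group and passed no test.

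Among 26 glycolysis genes tested, 8 rose and 1 fell in model livers (6 and 3 when scaled), with a median of 0.43. With silibinin 0 rose and 4 fell against the model (1 and 1 when scaled), and with phloridzin 1 rose and 3 fell (1 and 2 when scaled). Pfkfb3, which makes the activator of phosphofructokinase, was at 1.71 to 2.93 FPKM in control livers and 6.90 to 7.33 FPKM in model livers. It rose by 1.38 (SE 0.20, adjusted p = 0.000742) and fell by 1.03 with silibinin (SE 0.20, adjusted p = 0.00777) and by 1.09 with phloridzin (SE 0.20, adjusted p = 0.00637). Against control, Pfkp was higher by 0.78 with silibinin and 0.86 with phloridzin, and Aldoa (0.81) and Hk2 (0.62) with phloridzin, the last 2 lost when scaled (adjusted p = 0.102 and 0.0635). The fall of Gapdh with phloridzin (1.64 lower on the log2 scale in its listed values) rests on the low entries described above and was lost when scaled (adjusted p = 0.0610).

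**Figure D4:**
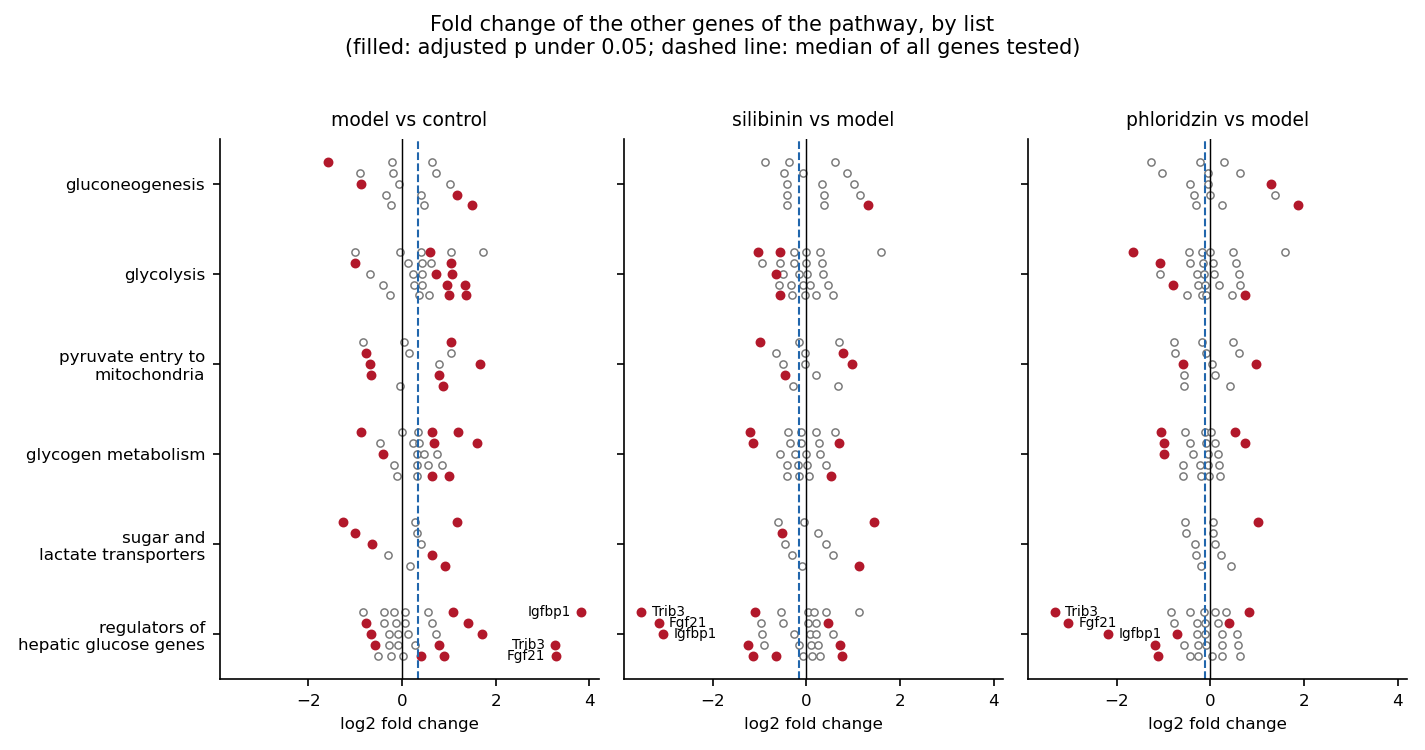
Log2 fold change of the other genes of the pathway by list, for model against control and each drug against the model (points: genes, filled at an adjusted p under 0.05; vertical spread within a list has no meaning; dashed line: median of all genes tested). Trib3, Fgf21 and Igfbp1 lie above 3 in model livers and below -2 with either drug.

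Of 22 glycogen genes tested, 6 rose and 2 fell in model livers (2 and 3 when scaled), 2 rose and 2 fell with silibinin (2 and 2 when scaled), and 2 rose and 3 fell with phloridzin (2 and 1 when scaled). The phosphoglucomutase genes went opposite ways. Pgm1, at a mean of 3.68 FPKM over the 12 livers, rose by 1.59 in model livers (SE 0.18, adjusted p = 0.000226) and fell by 1.20 with silibinin and 1.07 with phloridzin. Pgm2, at a mean of 80.9 FPKM, fell by 0.42 in model livers (SE 0.10, adjusted p = 0.0115) and rose by 0.52 with silibinin (adjusted p = 0.00863) and by 0.52 with phloridzin (adjusted p = 0.00930). Stbd1, a glycogen-binding protein, fell by 1.13 with silibinin (adjusted p = 0.00483) and by 0.98 with phloridzin (adjusted p = 0.00968; 0.0518 when scaled). Pygb, the glycogen phosphorylase named for brain, was at 1.92, 2.21 and 2.28 FPKM in control livers and at 5.28 to 7.70 FPKM in the other 9 livers. It was higher than control by 1.22 with silibinin (SE 0.14, adjusted p = 0.00248) and 1.39 with phloridzin (SE 0.14, adjusted p = 0.00130). The liver phosphorylase Pygl was at 80.3 to 171 FPKM and passed no test.

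Of 13 genes for the entry of pyruvate into mitochondria, 4 rose and 3 fell in model livers (3 and 4 when scaled), 2 rose and 2 fell with silibinin (3 and 1 when scaled), and 1 rose and 1 fell with phloridzin (2 and 1 when scaled). Pdk4, a kinase that switches off pyruvate dehydrogenase, rose by 1.66 in model livers (SE 0.24, adjusted p = 0.000772) and was higher than control by 1.39 with silibinin and 1.11 with phloridzin. Pdk3 was higher than control by 0.62 and 0.61. Of the 11 transporters tested, 3 rose and 3 fell in model livers (2 and 4 when scaled), 2 rose and 1 fell with silibinin (3 and 0 when scaled), and 1 rose and 0 fell with phloridzin (1 and 0 when scaled). The lactate carrier gene Slc16a7 rose by 1.45 with silibinin (SE 0.34, adjusted p = 0.0179), the fructose carrier gene Slc2a5 rose by 1.12 with silibinin (SE 0.23, adjusted p = 0.0102) and by 1.02 with phloridzin (SE 0.23, adjusted p = 0.0171), and Slc37a2 was higher than control with phloridzin by 0.82 (adjusted p = 0.0367).

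Markers of other liver cells are given beside Pkm and Slc2a1. The 9 macrophage markers, of which Lyz2 was the most abundant, summed to 141, 247 and 202 FPKM in control livers and 373, 578 and 507 FPKM in model livers. Their sum was 453, 569.8 and 395 FPKM with silibinin and 703, 641 and 362 FPKM with phloridzin, and 4 of 9 rose in model livers where 31.1% of all genes did (2 of 9 and 13.3% when scaled). Against control, 2 of 9 were higher with silibinin beside 4.59% of all genes, and 5 of 9 with phloridzin beside 7.51% (2 of 9 and 4.27% when scaled). The model livers were above the control livers, as for Pkm, and the drug groups overlapped the model, with 0 of 9 changed against it by either drug.

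The 9 markers of stellate cells and myofibroblasts, with Dcn the most abundant, summed to 88.6, 80.1 and 92.8 FPKM in control livers and 244, 237 and 273 FPKM in model livers. Their sum was 245, 279 and 137 FPKM with silibinin and 323, 194 and 170.2 FPKM with phloridzin. In model livers 7 of 9 rose, where 31.1% of all genes did (4 of 9 and 13.3% when scaled). Col1a1 was at 1.04 to 1.66 FPKM in control livers and 37.0 to 62.1 FPKM in model livers. For Col3a1 these ranges were 3.21 to 3.98 and 54.0 to 68.8 FPKM. Against control, 4 of 9 were higher with silibinin beside 4.59% of all genes (3 of 9 and 3.18% when scaled). With phloridzin 2 of 9 were higher beside 7.51% of all genes (2 of 9 and 4.27% when scaled). Against the model 0 of 9 changed with silibinin. Lrat alone fell with phloridzin, by 0.83 (adjusted p = 0.0149), where 10.4% of all genes fell. The 6 cholangiocyte markers, of which 3 were tested, summed to 11.3, 13.0 and 16.8 FPKM in control livers and 46.3, 55.7 and 50.3 FPKM in model livers. They summed to 48.0, 48.8 and 24.2 FPKM with silibinin and 52.7, 26.9 and 25.7 FPKM with phloridzin. Of the 3 tested, 2 rose in model livers beside 31.1% of all genes (1 and 13.3% when scaled), and 0 changed with either drug against the model. Against control 0 of 3 were higher with silibinin, beside 4.59% of all genes, and 1 with phloridzin, beside 7.51%. The latter was Krt19, by 1.22 (SE 0.21, adjusted p = 0.00899). Spp1 made up most of that sum, while Krt7, Epcam and Cftr were below 1 FPKM in all livers. For Pkm and for the macrophage, stellate and cholangiocyte sums, replicate 3 was the lowest of the silibinin livers and replicate 1 the highest of the phloridzin livers. In the cholangiocyte sum this order was that of Spp1. Sox9 went the other way, at 1.57, 1.71 and 4.18 FPKM with silibinin and 1.43, 2.54 and 3.42 FPKM with phloridzin. Krt19 was also highest in silibinin replicate 3, but its highest phloridzin liver was replicate 1. The order of livers shared with Pkm did not hold in full in other lists. The sinusoidal endothelial and neutrophil sums were highest in phloridzin replicate 2, at 90.5 and 81.0 FPKM. The lymphocyte sum was lowest in silibinin replicate 1, at 2.78 FPKM. No marker of these lists was listed at 0 in all livers. The part of these cells in the changes of Pkm and Slc2a1 was not tested.

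Hepatocyte markers are given by zone, and the zones were not tested against each other. The 7 general markers found, led by Alb, summed to 15063 to 22781 FPKM in control livers and 16483 to 28328 FPKM in model livers, 20431 to 35398 FPKM with silibinin and 23502 to 31738 FPKM with phloridzin, and 0 of 7 changed in any comparison in limma. The 8 pericentral markers, led by Cyp2e1, summed to 5024, 2432 and 4572 FPKM in control livers and 767, 814 and 887 FPKM in model livers. In model livers 6 of 8 fell, where 3.80% of all genes did (7 of 8 and 11.8% when scaled). The pericentral sum was 1989, 1192 and 1531 FPKM with silibinin and 1241, 849 and 898 FPKM with phloridzin. Against the model 3 of 8 rose with silibinin and 5 of 8 with phloridzin, beside 2.62% and 2.50% of all genes. Against control 3 of 8 were lower with silibinin and 4 of 8 with phloridzin, beside 0.433% and 0.479% of all genes. The mean of Cyp2e1 was 2812 FPKM in control livers, 504 FPKM in model livers, 1108 FPKM with silibinin and 442 FPKM with phloridzin. Of 8 periportal markers, which lie in the zone where gluconeogenesis is known to be strongest, 1 rose and 1 fell in model livers (0 and 1 when scaled). Of all genes 31.1% rose and 3.80% fell there (13.3% and 11.8% when scaled). Their sum, led by Cps1, was 3418, 3805 and 2620 FPKM in control livers and 2481, 2585 and 3327 FPKM in model livers. It was 3356, 4200.1 and 3847 FPKM with silibinin, where the lowest was barely above the highest model liver. With phloridzin the periportal sum was 2742, 4796 and 5855 FPKM, and replicate 1 lay within the model range. With silibinin 1 of 8 rose against the model and with phloridzin 0 of 8, beside 2.62% and 2.50% of all genes. The part of the hepatocyte zones in the values of G6pc and Fbp1 was not tested. Of the remaining lists in model livers, the sinusoidal endothelial one had 0 of 6 changed. The erythroid one had 0 of 5 changed (2 lower when scaled). The neutrophil list had 2 of 4 higher and the lymphocyte list 1 of 3, where 31.1% of all genes rose. When scaled both had 0, where 13.3% did. The mean neutrophil sum was 47.38 FPKM in model livers, 17.25 FPKM with silibinin and 47.02 FPKM with phloridzin. Against the model, 1 of 4 neutrophil markers fell with silibinin, Retnlg by 1.36 (adjusted p = 0.0406), beside 11.4% of all genes. This call was lost when scaled, and 0 of 4 changed with phloridzin. In the other lists only Alas2, an erythroid marker, changed against the model, up with silibinin.

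**Figure D5:**
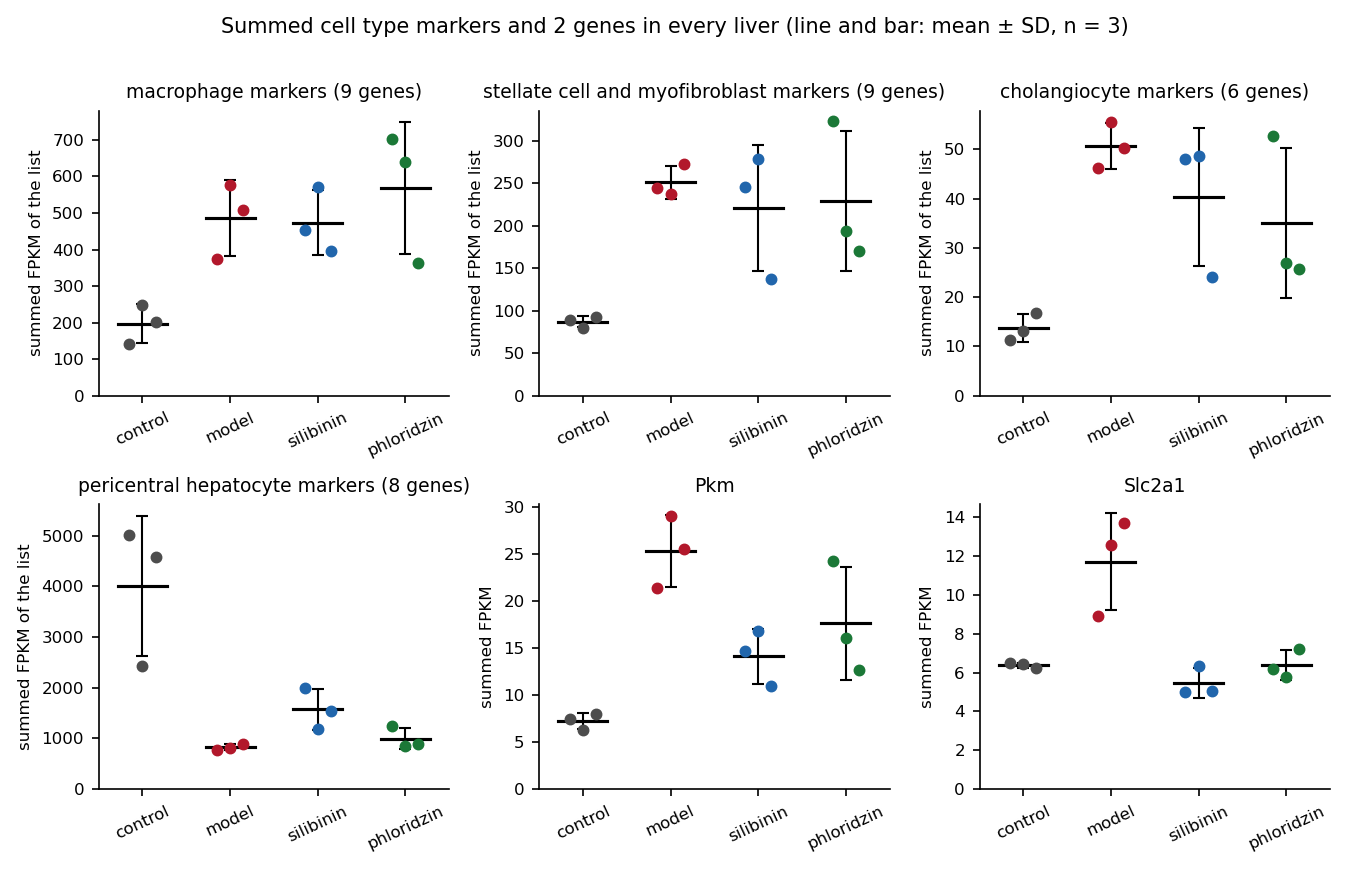
Summed FPKM of 4 marker lists, and of Pkm and Slc2a1, in every liver (points: livers, lines and bars: mean and SD, n = 3). Macrophage, stellate and cholangiocyte sums and Pkm are above control in all model livers, while the pericentral sum is 767 to 887 FPKM there against 2432 to 5024 FPKM in control livers.

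The genes closest in profile to each of the 9 were found from the root mean square difference of standardised log2 levels over 12 livers among 11611 genes. Pkm lay closest to Slamf9 (0.086 SD) and Ckb (0.17 SD). Slamf9 was at 0.169 to 0.299 FPKM in control livers and 1.70 to 2.37 FPKM in model livers. Slc2a1 lay closest to Polr2i (0.27 SD) and Srf (0.28 SD), and G6pc to Cyp4f15 (0.38 SD) and S100a1 (0.41 SD). Cyp4f15 was at 17.8 to 28.4 FPKM in model livers and at 31.5 to 65.5 FPKM in all others. The nearest genes were Gm5601 (0.35 SD) and Gm5524 (0.36 SD) for Fbp1, Lbp (0.47 SD) and Ccpg1os (0.62 SD) for Pck1, and Perp (0.45 SD) and Mrpl28 (0.47 SD) for Gys2. They were Dlat (0.42 SD) and Plpp6 (0.44 SD) for Slc2a2, Gm38345 (0.53 SD) and Selenop (0.58 SD) for Slc37a4, and Rpl23a (0.45 SD) and Gm7964 (0.51 SD) for Pklr, which share its high value in phloridzin replicate 3.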

How the data were processed

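RNA of 12 livers was sequenced, and the authors, per the labels, ran FastQC 0.11.5, aligned reads to mm10 with HISAT2 2.1.0, assembled them with StringTie 1.3.3b and tested differences with DESeq 1.28.0. The deposited values are FPKM per transcript made by the authors, while DESeq works on counts, so their test was not repeated here. Of 169430 transcripts, 82136 carried a gene symbol and 87294 without one were left out. FPKM were summed per symbol, and symbols with a mean of at least 0.5 FPKM were tested. log2(FPKM + 1), with a pseudocount of 1, was fitted in limma 3.58.1 (R 4.3.3) with a trend in the variance and 4 groups in 1 fit, two-sided, with Benjamini-Hochberg adjustment over all genes tested. The fit was also run on data simulated from its own model with planted changes. The simulated data held no shift of all genes and no changes of transcript, so that run does not bear on these. Tables and plots were made with Python 3.11.15, numpy 2.4.6, pandas 2.3.3 and matplotlib 3.10.9. Library size was read from the smallest steps of the FPKM values, at 83.7 to 110.9 (in units of 1e+06 fragments), and gave 1534 to 6402 fragments per liver for Pkm and 1710 to 4427 for Slc2a1. The 9 genes and the lists of other genes were chosen with earlier results of these data known. Other pathway genes are named where they were among the 10 largest changes of a comparison, stand next to 1 of the 9 genes in the pathway, or share an enzyme with a gene so named. Alternatives were other pseudocounts and filters, median-ratio scaling, fits of only the compared groups, a replicate block, no fold change cutoff, coding or most abundant transcripts only, and leaving out each library.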

Additional observations from a re-analysis of the deposited data

How the results depend on the processing

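With 3 livers in a group, the wide spread of Pck1 and Slc37a4 within groups leaves large differences unseen. Deposited FPKM are not counts, and the shift of the median of all genes makes the direction of small changes depend on the scaling. RNA of whole liver gives no level per cell, and neither enzyme activity nor blood glucose was analysed here. The time since the last meal, on which G6pc and Pck1 are known to depend, is not given in the sources used here. Why the values below changed was not tested.

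With a pseudocount of 0.1, DE genes numbered 2596 (1382 with 1) for model against control, 702 (463) for phloridzin against model, 828 (261) for silibinin against control and 1103 (398) for phloridzin against control, and 1 (0) of the 9 genes was DE for silibinin against model. With no filter on low values 0 (1) of the 9 were DE for phloridzin against model, and with a mean of at least 1 FPKM 1 (0) for silibinin and 2 (1) for phloridzin against model. With median-ratio scaling 2 (1) of the 9 were DE for model against control, 1 (0) for silibinin and 2 (1) for phloridzin against model, and 0 (1) for phloridzin against control, where 249 (398) of all genes were. Scaling turned the sign of Slc2a2 in model against control livers to -0.31 (0.13), of Pck1 between phloridzin and silibinin to -0.0106 (0.02), of G6pc with silibinin against control to -0.13 (0.10) and of Gys2 with phloridzin against control to -0.16 (0.10).

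With only the 2 compared groups in the fit, the fall of Slc2a1 with phloridzin against model was not called (adjusted p = 0.0755), 0 (1) of the 9 were DE for phloridzin against model and 0 (1) against control, with 0 (3) of all genes between the drugs and 143 (398) for phloridzin against control. With no fold change cutoff the 9 genes gave 2 calls for model against control, 2 for silibinin and 2 for phloridzin against model, and all genes gave 4594, 1849 and 1691, with 661 for silibinin and 1051 for phloridzin against control. With protein-coding transcripts only, Pck1 was -0.10 between phloridzin and silibinin and Pklr -0.00205 with silibinin against control. With the most abundant transcript only, Pklr was -0.00157 in model against control livers, 0 for silibinin against model and -0.00157 against control, Pck1 was -0.10 between the drugs and Slc37a4 was 0.72 (-0.27) with silibinin against control, -2.47 (-1.10) in model against control livers, 3.19 (0.83) for silibinin against model, -2.56 (-0.18) between the drugs and -1.84 (-0.44) for phloridzin against control. In that setting 0 (1) of the 9 were DE for phloridzin against model, and all genes gave 5 (3) between the drugs, 117 (261) with silibinin and 190 (398) with phloridzin against control.

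Sample numbers were checked as a replicate block, since the labels number the livers within each group. With the replicate block 1 (0) of the 9 genes was DE for silibinin against model and 2 (1) for phloridzin against model. G6pc passed with the replicate block in model against control livers (adjusted p = 0.0349, range 0.0304 to 0.219 over 14 alternatives), for silibinin against model (adjusted p = 0.0474, range 0.0474 to 0.268) and for phloridzin against model (adjusted p = 0.0269, range 0.0178 to 0.171), Fbp1 passed for silibinin against model (adjusted p = 0.0391, range 0.00973 to 0.146), and Pkm did not for silibinin against model (adjusted p = 0.0586, range 0.0383 to 0.140). The correlation of livers with the same number, after the group means were taken out, had a median of 0.0039 over 18 pairs, from -0.0909 to 0.101, and -0.0059 over 36 other pairs, so the numbers do not pair the livers.

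Leaving out 1 library at a time gave the following lowest and highest values. For model against control Gys2 was -0.17 to 0.12, Slc2a2 -0.17 to 0.36, Fbp1 -1.05 to -0.0680, Pck1 -1.86 to -0.60, Pklr 0.18 to 0.42 and Slc37a4 -1.35 to -0.61. For silibinin against model 0 to 1 of the 9 genes were DE and Pklr was -0.30 to 0.0276, Gys2 0.22 to 0.49, Pck1 0.0809 to 1.27 and Slc37a4 0.45 to 1.12. For phloridzin against model 0 to 1 of the 9 were DE, with Gys2 -0.0300 to 0.27, Pck1 -0.17 to 1.08, Pklr -0.52 to 1.27, Slc2a2 -0.0845 to 0.45, Pkm -0.78 to -0.33 and Slc37a4 0.18 to 0.92. Between the drugs 1 to 6 of all genes were DE, with G6pc -0.11 to 0.54, Pck1 -0.79 to 0.56, Pklr -0.35 to 1.44, Slc37a4 -0.65 to 0.20, Fbp1 0.0577 to 0.29, Gys2 -0.37 to -0.0878, Pkm 0.0312 to 0.48, Slc2a1 0.11 to 0.29 and Slc2a2 -0.90 to -0.39. For silibinin against control 0 to 1 of the 9 genes and 101 to 381 of all genes were DE, with G6pc -0.14 to 0.40, Pck1 -1.24 to 0.22, Slc37a4 -0.65 to 0.22, Fbp1 0.56 to 1.16, Gys2 0.18 to 0.46, Pklr 0.0115 to 0.35 and Slc2a2 0.56 to 1.17. For phloridzin against control 0 to 1 of the 9 genes and 214 to 635 of all genes were DE. In that comparison G6pc was -0.0137 to 0.63, Gys2 -0.0426 to 0.24, Pck1 -1.22 to 0.0428, Pklr -0.19 to 1.60, Slc2a1 -0.0852 to 0.0573, Slc2a2 -0.0139 to 0.49 and Slc37a4 -0.92 to 0.0408.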
